A study of Mus musculus with 12 samples.

Results

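Wild-type (wt) macrophages that had been co-cultured with myeloma cells (MM-MΦs) were compared with wt macrophages cultured without them (MΦs), with the libraries of both groups matched by their replicate number. These are 6 of the 12 libraries of the series, 3 MΦ and 3 MM-MΦ, and 14197 of the 55573 genes in the count table had enough counts to be tested. All 6 came from bone marrow of C57BL/6 BMI1fl/fl mice, which carry floxed Bmi1 alleles and no Cre. The mice, 6 to 8 weeks old, received 5 doses of poly I:C at 15 mg/kg, and the marrow was taken 4 weeks later, so both groups share this treatment. Adherent marrow cells were grown in 5 ng/mL M-CSF for 7 days, and MM-MΦs then spent 48 h with 5TGM1 cells, a murine myeloma line. Whether the MΦs were kept for the same further time is not stated. The remaining 6 libraries hold MΦs and MM-MΦs of BMI1fl/fl Mx1-Cre mice after the same poly I:C course (BMI1-KO). CD11b+ F4/80+ cells were sorted before RNA extraction. The sources do not say whether replicates are separate mice. The p-values come from a fit that removes the differences between replicate numbers. They therefore measure how much the co-culture change varied among these matched libraries, with the spread estimated over both genotypes. They do not measure the spread between mice.

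Type I interferons bind the receptor of Ifnar1 and Ifnar2, whose kinases activate Stat proteins. Stat2 acts with Irf9 in a complex that binds an interferon-stimulated response element in the promoters of antiviral genes, and Irf7, itself induced, amplifies the signal. Macrophages respond strongly to it, and poly I:C is a well known inducer of interferon. Myeloma is a tumour of plasma cells, which are filled with immunoglobulin mRNA, and the 5T myelomas make an IgG2b antibody with a kappa light chain. Immunoglobulin RNA in the sorted cells is therefore treated here as possible RNA of the myeloma cells.

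Interferon-stimulated genes were higher in wt MM-MΦs in each pair, and few genes were lower. At an edgeR adjusted p of at most 0.05, 150 of the 14197 genes were called higher (1.06% of those tested) and 6 were called lower (0.0423%), with 915 genes at an unadjusted p under 0.05. All 150 were higher in each of the 3 pairs, as were 15.0% of all genes tested. The test on these same pairs favours such genes. The log2 fold changes (log2 changes) of the 150 ran from 0.37 to 7.35 with a median of 0.90, and 68 reached a log2 fold change of 1. In 113 of the 150 (75.3%) the 3 MM-MΦ libraries all lay above the 3 MΦ libraries, against 3.04% of all genes tested, and in the other 37 the pairs moved together across overlapping levels. Of the 150, 135 are annotated as protein coding and 43 are on lists of interferon genes. Another 8 are immunoglobulin or plasma cell genes. Without the replicate number as a block 13 genes were called, all of them among the 156, and without pair 1, 2 or 3 the counts were 103, 169 and 94.

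**Figure D1:**
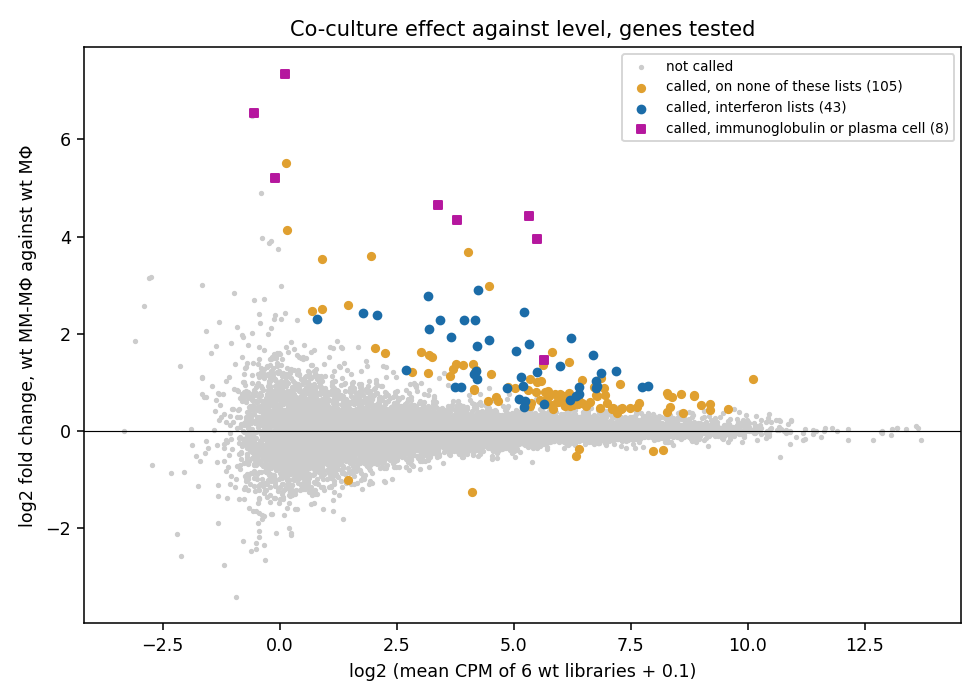
Each point is a gene tested, placed by its mean level over the 6 wt libraries (log2 of CPM plus 0.1, where CPM are read counts scaled to library size) and its log2 fold change in wt MM-MΦs against wt MΦs. The 43 called genes of the interferon lists (blue) lie above 0 at low and high levels, the 8 called immunoglobulin or plasma cell genes (squares) include the largest fold changes, and 6 called genes lie below 0.

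Library totals of the 6 wt libraries ran from 9898046 to 10799985 counts. The first principal component of these libraries, with 51.9% of the variance, followed the replicate number and not the co-culture. It placed both libraries of pair 3 at 55.4 and 60.7, those of pair 1 at −42.6 and −37.1 and those of pair 2 at −18.6 and −17.8. Mki67, a marker of dividing cells, was at 1120 and 1156 CPM in the MΦ and MM-MΦ libraries of pair 3 and 188 to 304 CPM in the other 4. The label was checked against 20 macrophage genes, all of them tested and with a summed level of 21300 to 29030 CPM in MΦs and 21610 to 31950 CPM in MM-MΦs. Adgre1, which encodes F4/80, had 1039, 1141 and 889 CPM in MΦs and 1243, 1081 and 914 CPM in MM-MΦs. Ms4a1 of B cells and Cd3e of T cells had 0 counts in all 6 libraries, but other members of their lists had counts. The 12 B cell genes summed to 42.1 to 71.1 CPM in MΦs and 52.9 to 66.4 CPM in MM-MΦs. The 14 T and NK cell genes summed to 148 to 433 CPM in MΦs and 176 to 417 CPM in MM-MΦs. Of 3 B cell and 2 T and NK cell genes tested, 0 were called. Bmi1 had 25.5 to 27.4 CPM in wt MΦs and 29.1 to 32.5 CPM in wt MM-MΦs (log2 change 0.23, SE 0.16, edgeR adjusted p = 0.939). It is listed at 0 counts in the BMI1-KO libraries, which was not used here to check their labels.

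Ifit1, Ifit2, Ifit3 and Ifit3b encode tetratricopeptide proteins that bind viral RNA. They lie on chromosome 19 of GRCm38 from 34550694 to 34650009, a span that starts and ends at called genes. In it 4 of the 5 genes tested were called higher. The other gene, Ifit1bl1, was not called, at a log2 fold change of 2.27. Ifit2 had 10.2, 10.5 and 13.7 CPM in the MΦ libraries and 70.2, 57.4 and 61.5 CPM in the MM-MΦ libraries of pairs 1, 2 and 3. The lowest MM-MΦ library was thus above the highest MΦ library. The log2 fold change was 2.45 (SE 0.14, edgeR adjusted p = 2.02e-09), the smallest adjusted p of all genes together with that of Igkc. Ifit3 had 3.56, 5.31 and 4.52 CPM in MΦs and 29.8, 30.9 and 38.7 CPM in MM-MΦs (log2 change 2.90, SE 0.22, edgeR adjusted p = 7.45e-08). Ifit1 had 5.28, 6.23 and 4.18 CPM in MΦs and 23.6 to 28.2 CPM in MM-MΦs (2.28, SE 0.18, edgeR adjusted p = 1.11e-07). Neither gene overlapped between the groups. Ifit3b, a near copy of Ifit3 with which reads may be shared, was at 2.42 (SE 0.45, edgeR adjusted p = 0.00432) and at 1.93 without pair 2 (adjusted p = 0.0512).

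The Ifi200 family, which includes sensors and regulators of cytosolic DNA, formed the longest run of called genes on 1 chromosome. The run starts and ends at called genes, from 173468485 to 174031810 on chromosome 1. In it 11 of the 12 genes tested were called higher, namely Ifi206, Ifi213, Ifi209, Ifi208, Ifi207, Ifi204, Ifi203-ps, Mndal, Ifi211, Ifi203 and Ifi205. Ifi206 had 3.05, 2.76 and 1.37 CPM in MΦs and 32.4, 26.3 and 31.6 CPM in MM-MΦs (log2 change 3.68, SE 0.22, edgeR adjusted p = 2.5e-09). This was the largest rise outside the immunoglobulin genes among genes with at least 5 CPM in the higher group. Ifi213 had 6.81, 5.21 and 2.99 CPM in MΦs and 44.8, 27.4 and 45.0 CPM in MM-MΦs (2.98, SE 0.24, edgeR adjusted p = 1.48e-07). Ifi208 had 1.22, 0 and 0.598 CPM in MΦs and 7.49, 3.52 and 9.91 CPM in MM-MΦs (3.60, SE 0.43, edgeR adjusted p = 2.65e-05). The members with high levels had smaller fold changes. Ifi207 had 571, 502 and 356 CPM in MΦs and 920, 598 and 584 CPM in MM-MΦs (0.55, SE 0.10, edgeR adjusted p = 0.00374), and it was not called without pair 1 (adjusted p = 0.0885) or pair 3 (adjusted p = 0.152). Aim2, the inflammasome sensor of the same family, did not pass (log2 change 0.06, edgeR adjusted p = 0.997). These genes are close copies of each other, so that the split of reads among them is uncertain.

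**Figure D2:**
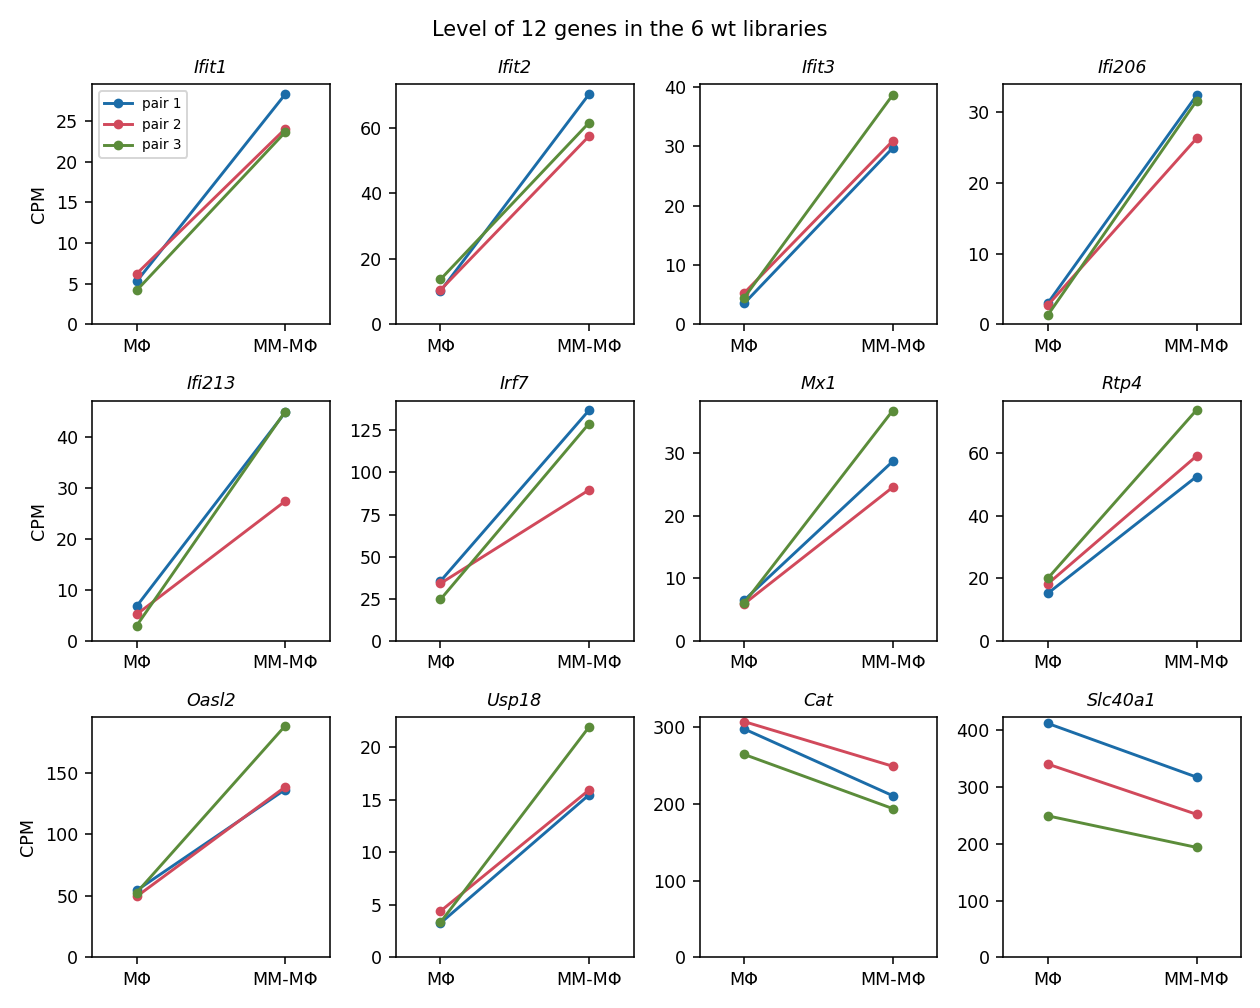
CPM of 12 genes in the MΦ and the MM-MΦ library of each pair, joined by a line for each pair, with every axis starting at 0. For the 10 interferon-related genes all 3 lines rise and the groups do not overlap, while Cat and Slc40a1 fall in all 3 pairs.

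Promoter sequences are shown for the leading genes of these families, to compare their letters with the element that the interferon-activated complex binds. RefSeq windows of 300 bases on GRCm38.p6 (250 before to 50 after the start) were at hand for 9502 of the tested gene symbols, 107 of them called higher. The interferon-stimulated response element was searched as GAAANNGAA on both strands, with TTCNNTTTC as its reverse. A gene was counted if any of its windows held the letters, with 12097 windows for the 9502 genes. The element was present for 46 of the 107 genes called higher (43.0%) and for 834 of all 9502 genes (8.78%). Among called genes on the interferon lists 22 of 30 held it (73.3%), and among the other genes called higher 24 of 77 (31.2%). The interferon gamma activated site, TTCNNNGAA, was present for 15.9% of these genes called higher and 8.14% of all. The AP-1 site TGANTCA was in 16.8% and 6.24%, and the amino acid response element core TGATGNAA in 10.3% and 2.82%. The NF-kB site was in 27.1% and 30.2%. The Myc E-box CACGTG was present for 1 of the 107 genes called higher and for 1138 of all 9502 genes. The CCAAT box was in 33.6% and 43.1%, the hypoxia response element ACGTGC in 1.87% and 9.60%, and the sterol response element core TCACNCCAC in 0.935% and 1.38%. A match is a description of letters and not of binding. Of the genes named for the largest rise or the smallest p, 10 had a window and 7 of these held the element. The 150 bases before the start are given for the 6 that held it there, 5′ to 3′ on the strand of the gene, with the element in capitals:
Ifit1 (chr19:34640739-34640888, plus strand): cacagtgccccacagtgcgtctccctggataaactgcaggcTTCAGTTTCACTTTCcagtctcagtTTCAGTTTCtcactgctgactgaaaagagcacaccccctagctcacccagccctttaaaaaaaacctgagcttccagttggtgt
Ifit3 (chr19:34583379-34583528, plus strand): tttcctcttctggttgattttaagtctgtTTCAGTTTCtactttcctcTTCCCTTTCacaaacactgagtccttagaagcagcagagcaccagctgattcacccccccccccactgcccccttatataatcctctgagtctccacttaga
Ifit3b (chr19:34607807-34607956, plus strand): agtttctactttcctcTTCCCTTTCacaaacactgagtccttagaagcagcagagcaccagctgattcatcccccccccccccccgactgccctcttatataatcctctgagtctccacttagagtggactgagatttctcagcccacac
Ifi206 (chr1:173491319-173491468, minus strand): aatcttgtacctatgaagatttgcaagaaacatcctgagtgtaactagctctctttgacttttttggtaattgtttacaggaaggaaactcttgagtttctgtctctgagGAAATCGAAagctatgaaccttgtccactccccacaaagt
Ifi208 (chr1:173673515-173673664, plus strand): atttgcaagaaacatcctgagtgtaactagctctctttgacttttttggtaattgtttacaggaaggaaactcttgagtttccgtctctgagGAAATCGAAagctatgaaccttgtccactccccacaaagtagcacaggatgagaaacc
Ifi213 (chr1:173599273-173599422, minus strand): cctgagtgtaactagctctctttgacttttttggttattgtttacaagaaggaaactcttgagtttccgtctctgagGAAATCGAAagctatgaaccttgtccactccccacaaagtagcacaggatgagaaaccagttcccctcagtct

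In Ifit1 the element occurred 3 times in this stretch, beginning 109, 103 and 84 bases before the start, with the first 2 copies overlapping. In Ifit3 it began 121 and 102 bases before the start. Ifi206, Ifi208 and Ifi213 share 1 copy, GAAATCGAA, 40, 58 and 73 bases before their starts, inside a run of 49 bases that is the same in all 3 stretches. Ifit3 and Ifit3b share an identical run of 69 bases. Ifit2, Oasl1 and Oasl2 had no match to these letters in their windows.

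The interferon-stimulated list as a whole held 41 genes, of which 39 were tested and 37 called higher, with 0 called lower. Its median log2 fold change was 1.21, against 0.00 for all genes tested, and the median was 1.30, 0.84 and 1.39 in pairs 1, 2 and 3. The genes together made up 1371, 1486 and 1267 CPM in MΦs and 2978, 2744 and 3148 CPM in MM-MΦs, so that the groups did not overlap. The 2 members that did not pass were Isg15, a ubiquitin-like protein at 0.711 to 1.23 CPM in MΦs and 1.97 to 5.18 CPM in MM-MΦs (edgeR adjusted p = 0.0773), and Isg20. Isg15 passed without pair 2 (log2 fold change 2.43, edgeR adjusted p = 0.0231).

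Genes that carry the interferon signal were described from ligand to transcription factor. No counts were found for any of 21 interferon genes, including Ifnb1 and Ifng, in the 6 wt libraries. Ifnar1 had 273 to 351 CPM in MΦs and 297 to 393 CPM in MM-MΦs (log2 change 0.09, SE 0.08, edgeR adjusted p = 0.977). Of 8 receptor and kinase genes tested 0 were called by edgeR, with log2 fold changes from −0.12 to 0.12. Further down the pathway, Irf7, Irf9, Stat2 and Stat3 were among the transcription factor genes called higher. Irf7 had 35.5, 34.1 and 24.6 CPM in MΦs and 137, 89.6 and 129 CPM in MM-MΦs (1.91, SE 0.18, edgeR adjusted p = 1.45e-06). The groups of Irf7 did not overlap. Stat2 rose by 1.02 on the log2 scale (SE 0.10, edgeR adjusted p = 1.85e-06) and Irf9 by 0.56 (SE 0.11, edgeR adjusted p = 0.00764). Irf9 was not called without pair 1, 2 or 3 in turn (adjusted p = 0.0693, 0.0634 and 0.102). Stat3, which serves interleukin 6 and interleukin 10, had 178, 161 and 142 CPM in MΦs and 309, 239 and 157 CPM in MM-MΦs (0.50, SE 0.10, edgeR adjusted p = 0.0128), and it was not called without pair 1 (0.35, adjusted p = 0.425) or pair 2 (0.48, adjusted p = 0.0881). Usp18, a protease that removes Isg15 and restrains the receptor, had 3.25, 4.39 and 3.33 CPM in MΦs and 15.5, 15.9 and 21.9 CPM in MM-MΦs (2.28, SE 0.25, edgeR adjusted p = 8.62e-06).

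Effectors and sensors of virus RNA moved in the same direction. Of 8 Oas and Oasl genes tested, which make the 2′-5′ oligoadenylates that activate RNase L or are related to those enzymes, 6 were called higher. Oasl2 had 54.5, 49.5 and 52.7 CPM in MΦs and 137, 139 and 188 CPM in MM-MΦs (log2 change 1.55, SE 0.12, edgeR adjusted p = 1.48e-07). Oasl1, at 9.40 ± 0.817 CPM in MΦs and 34.6 ± 5.20 CPM in MM-MΦs (SD, n = 3 each), changed by 1.88 (SE 0.15, edgeR adjusted p = 1.45e-07). The 2 that were not called were Oas1b and Oas1c. Mx1 and Mx2, dynamin-like antiviral GTPases, were both called. Mx1 had 6.50, 5.92 and 6.06 CPM in MΦs and 28.6, 24.5 and 36.8 CPM in MM-MΦs (2.27, SE 0.21, edgeR adjusted p = 7.74e-07). Mx1 is also the gene whose promoter drives Cre in the BMI1-KO mice, and the wt mice carry no Cre. All 9 genes of a chosen set of RNA sensors were called higher. Among them were Zbp1 (1.75), Ddx58 (0.90), which encodes RIG-I, Dhx58 (0.89) and Ifih1 (0.64), which encodes MDA5. The set is not complete, as it holds no Toll-like receptors. Of 15 Toll-like receptor and adaptor genes tested 0 were called, and the RNA receptors Tlr7 and Tlr8 both stood at 0.24. The call of Ifih1 was lost without pair 1 (adjusted p = 0.0779) or pair 3 (adjusted p = 0.0966). Rtp4, a chaperone of receptors, had 15.2, 18.3 and 20.1 CPM in MΦs and 52.5, 59.1 and 73.8 CPM in MM-MΦs (1.79, SE 0.13, edgeR adjusted p = 7.45e-08). Ifi44 had 1.83, 2.35 and 2.31 CPM in MΦs and 23.2, 9.83 and 13.8 CPM in MM-MΦs (2.77, SE 0.25, edgeR adjusted p = 7.36e-07). Rnf213, a large E3 ubiquitin ligase, was the highest of the called genes on the CPM scale, with 718 ± 36.6 CPM in MΦs and 1508 ± 164 CPM in MM-MΦs (SD, n = 3 each), a log2 fold change of 1.07.

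Genes that interferon gamma in particular is known to induce moved in part. Of 13 tested, 6 were called higher, 0 lower, and all 13 had a log2 fold change above 0, with a median of 0.90. In pairs 1, 2 and 3 the median was 1.09, 0.41 and 0.92. Guanylate-binding proteins attack the vacuoles of intracellular microbes, and Gbp2, Gbp3, Gbp6, Gbp7 and Gbp9 were 5 of 8 Gbp genes called. Gbp7 had 13.9, 12.2 and 6.91 CPM in MΦs and 32.4, 21.9 and 22.1 CPM in MM-MΦs (log2 change 1.24, SE 0.20, edgeR adjusted p = 0.000758). Gbp2 was at 0.90 and lost its call without pair 1 (adjusted p = 0.511) or pair 3 (adjusted p = 0.0695). Gbp3, also at 0.90, lost it without pair 2 (adjusted p = 0.123) or pair 3 (adjusted p = 0.493). Iigp1, an immunity-related GTPase, had 1.32, 0.715 and 1.79 CPM in MΦs and 11.2, 3.41 and 6.49 CPM in MM-MΦs (2.39, SE 0.41, edgeR adjusted p = 0.00179), and it was at 2.00 without pair 1 (adjusted p = 0.0775). The chemokines Cxcl9 and Cxcl11 had at most 1 count in a library. Cxcl10 had 11.7, 7.25 and 3.59 CPM in MΦs and 20.6, 8.79 and 6.84 CPM in MM-MΦs (0.67, SE 0.22, edgeR adjusted p = 0.259).

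Immunoglobulin RNA was present in every MM-MΦ library and, at a lower level, in the MΦ libraries, 1 of which stood apart. Counts over the 375 immunoglobulin genes of the table came to 7.24, 49.1 and 15.5 CPM of the unscaled totals in the MΦ libraries and 112, 348 and 206 CPM in the MM-MΦ libraries. The exact 95% intervals, which cover counting error only, were 44.8 to 53.7 for MΦ replicate 2 and 5.69 to 9.07 for MΦ replicate 1. The same 4 genes, Igkc, Ighg2b, Igkv10-96 and Ighv1-54, held 91.2, 91.5 and 92.8% of these counts in the MM-MΦ libraries, and 21.3, 70.4 and 30.5% in the MΦ libraries. Replicate 2 was highest in both groups, and its MΦ library, which had no labelled contact with myeloma cells, carried the same pair of variable genes.

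Igkc, the kappa constant region, had 12, 157 and 31 counts in the MΦ libraries and 423, 1327 and 831 counts in the MM-MΦ libraries (log2 change 3.95, SE 0.23, edgeR adjusted p = 2.02e-09). Ighg2b, the IgG2b constant region, had 0, 113 and 19 counts in MΦs and 424, 1170 and 716 counts in MM-MΦs (4.43, SE 0.39, edgeR adjusted p = 4.94e-07). Both genes lay higher in all 3 MM-MΦ libraries than in any MΦ library. Igkv10-96 had 0, 49 and 1 counts in MΦs and 141, 354 and 299 in MM-MΦs (4.34, SE 0.47, edgeR adjusted p = 6.97e-06). Ighv1-54 had 4, 23 and 0 counts in MΦs and 115, 305 and 189 in MM-MΦs (4.64, SE 0.42, edgeR adjusted p = 7.74e-07). Without pair 2 the log2 fold changes were 4.90 for Igkc, 5.98 for Ighg2b, 8.49 for Igkv10-96 and 6.14 for Ighv1-54. Iglc2, a lambda constant region, had 0 counts in the MΦ libraries and 10, 28 and 23 in MM-MΦs, at least 20.5-fold higher when the MΦ group is set to a total of 3 counts, and Iglc3 had 0 against 11, 20 and 4 counts, at least 11.8-fold. The call of Iglc2 was lost without pair 2 (adjusted p = 0.0744) or pair 3 (adjusted p = 0.0965), and that of Iglc3 without any 1 pair. Ighm, the IgM heavy chain, had 37, 58 and 39 counts in MΦs and 47, 84 and 60 in MM-MΦs (edgeR adjusted p = 0.830).

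Of 18 plasma cell and myeloma genes tested 2 were called higher and 0 lower, with a median log2 fold change of 0.19. Pou2af1, a B cell transcription coactivator, had 0, 1 and 0 counts in MΦs and 7, 35 and 7 counts in MM-MΦs, and its call was lost without any 1 pair (adjusted p = 0.0650, 0.248 and 0.0736 without pairs 1, 2 and 3). Cd38, an ectoenzyme of plasma cells that macrophages also express, had 26.1, 29.3 and 19.6 CPM in MΦs and 128, 42.2 and 55.4 CPM in MM-MΦs (1.46, SE 0.22, edgeR adjusted p = 0.000527). Its largest rise was in pair 1, the pair with the least immunoglobulin RNA. With 3 pairs no relation between Cd38 and immunoglobulin RNA was tested. Il5ra, the interleukin 5 receptor, had 0, 1 and 0 counts in MΦs and 3, 29 and 29 counts in MM-MΦs (edgeR adjusted p = 0.0071). Its call was lost without pair 2 (adjusted p = 0.0720) or pair 3 (adjusted p = 0.226). Sdc1, which encodes the plasma cell marker CD138, had 827, 1169 and 284 counts in MΦs and 607, 1298 and 362 counts in MM-MΦs. Tnfrsf17, which encodes BCMA, had at most 1 count in a library, and Jchain 2 to 12 counts. In bulk libraries fewer cells of a type and less RNA per cell cannot be told apart, and whether the immunoglobulin reads came from myeloma cells was not tested.

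**Figure D3:**
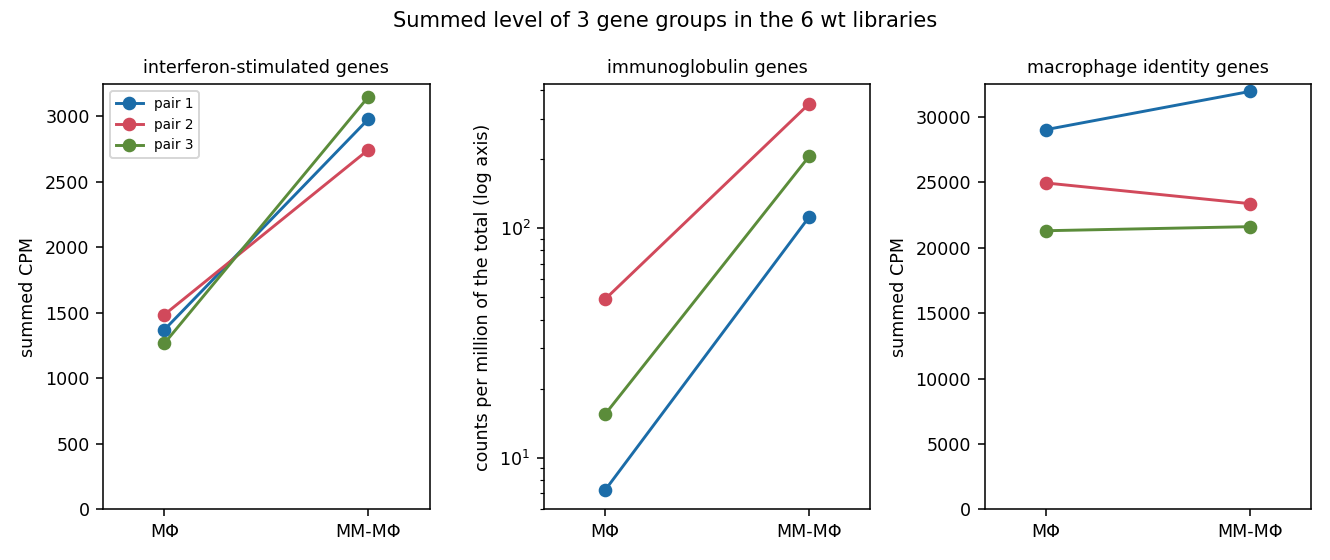
Summed level of 3 gene groups in the MΦ and the MM-MΦ library of each pair. The 41 interferon-stimulated genes lie between 1267 and 1486 CPM in MΦs and between 2744 and 3148 CPM in MM-MΦs, immunoglobulin genes are on a log axis and highest in pair 2, and the 20 macrophage genes have overlapping groups.

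Pair 2, with the most immunoglobulin RNA in both libraries, had the smallest median rise of the interferon-stimulated list (0.84), and pair 1, with the least, had a median of 1.30. With 3 pairs no relation between these values was tested. Without pair 2, 35 members of the interferon-stimulated list were called, and without pair 1 or pair 3 it was 32 each.

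In the list of class I antigen presentation 2 of 14 genes tested were called higher and 0 lower, and all 14 had log2 fold changes above 0 with a median of 0.25. Nlrc5, the transactivator of class I genes, had 94.2, 66.2 and 77.2 CPM in MΦs and 134, 96.2 and 127 CPM in MM-MΦs (log2 change 0.59, SE 0.09, edgeR adjusted p = 0.000339). Tap1, a subunit of the peptide transporter, was at 0.64 (SE 0.11, edgeR adjusted p = 0.00256) and at 0.54 without pair 3 (adjusted p = 0.132). H2-T24, a class I gene on none of the lists and chosen after its values were seen, had 12.3, 12.1 and 5.38 CPM in MΦs and 23.96, 29.2 and 21.6 CPM in MM-MΦs. Its groups did not overlap, and its log2 change, 1.38 (SE 0.22, edgeR adjusted p = 0.000769), was larger than those of Nlrc5 and Tap1. Class I genes have close copies, so that its reads may be shared. In the class II list 1 of 9 was called, Cd74, the invariant chain. Cd74 had 80.7, 91.1 and 18.5 CPM in MΦs and 135, 146 and 27.3 CPM in MM-MΦs (0.67, SE 0.12, edgeR adjusted p = 0.00276), with overlapping groups. Its call was lost without pair 1 (adjusted p = 0.0990) or pair 2 (adjusted p = 0.0513). Ciita, the class II transactivator, had 41, 64 and 6 counts in MΦs and 61, 70 and 10 counts in MM-MΦs (edgeR adjusted p = 0.992).

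Of 15 chemokine ligand genes tested 4 were called higher, Ccl2, Ccl4, Ccl6 and Cxcl2, and 0 lower. All 15 had a log2 fold change above 0, with a median of 0.55. Ccl2, which recruits monocytes, had 5.08, 4.19 and 14.8 CPM in MΦs and 17.9, 7.45 and 25.4 CPM in MM-MΦs (1.12, SE 0.25, edgeR adjusted p = 0.0245). Cxcl2, which draws neutrophils, had 898, 719 and 352 CPM in MΦs and 1294, 769 and 575 CPM in MM-MΦs (0.44, SE 0.11, edgeR adjusted p = 0.0444). All 4 ligands had groups that overlapped, and all 4 calls were lost without pair 1 (adjusted p = 0.495 for Ccl2, 0.872 for Ccl4, 0.440 for Ccl6 and 0.386 for Cxcl2) and without pair 3 (0.0568, 0.198, 0.109 and 0.813). The call of Ccl6 was lost without pair 2 as well (adjusted p = 0.0512). Ccr1, a chemokine receptor, had 44.3, 86.0 and 17.2 CPM in MΦs and 89.3, 113 and 32.8 CPM in MM-MΦs (0.76, SE 0.13, edgeR adjusted p = 0.00244), and its call was lost without pair 1 (adjusted p = 0.105) or pair 3 (adjusted p = 0.0536).

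Single members of other lists were called. Fcgr1, the high-affinity IgG receptor CD64, had 58.6, 41.6 and 71.9 CPM in MΦs and 149, 81.9 and 128 CPM in MM-MΦs (log2 change 1.05, SE 0.11, edgeR adjusted p = 6.97e-06). It was the only 1 of 7 Fc receptors and of 20 macrophage genes tested to pass. Of the 6 galectin-list genes 2 passed, Lgals9 (0.78, SE 0.10, edgeR adjusted p = 7.58e-05) and Lgals3bp (0.69, SE 0.10, edgeR adjusted p = 0.000167), a ligand of galectins. The median of the 6 was 0.04, with 3 above 0 and 3 below. Socs3, which restrains Stat3 signalling, had 149, 111 and 40.1 CPM in MΦs and 401, 152 and 81.3 CPM in MM-MΦs (0.97, SE 0.18, edgeR adjusted p = 0.00481). Socs3 was not called without pair 1 (adjusted p = 0.189) or pair 3 (adjusted p = 0.0510) or by DESeq2 (adjusted p = 0.267). Plk2, a polo-like kinase, is on none of these lists and was chosen after its values were seen. It had 686, 441 and 175 CPM in MΦs and 843, 633 and 297 CPM in MM-MΦs (0.52, SE 0.10, edgeR adjusted p = 0.00522), and it was at 0.40 without pair 3 (adjusted p = 0.263).

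Markers of alternatively activated and tumour-associated macrophages were mostly not called. Of 19 tested, 1 was called higher, Fn1, and 0 lower, with a median log2 fold change of 0.27. Fn1, which encodes fibronectin, had 27.8, 152 and 181 CPM in MΦs and 49.3, 229 and 197 CPM in MM-MΦs (0.48, SE 0.11, edgeR adjusted p = 0.0329). Its call was lost without pair 1 (adjusted p = 0.495) or pair 2 (adjusted p = 0.273). Arg1, arginase 1, had 1.83, 21.9 and 20.5 CPM in MΦs and 2.30, 49.2 and 36.0 CPM in MM-MΦs (0.89, SE 0.24, edgeR adjusted p = 0.0867), and it passed in limma-voom (adjusted p = 0.00186). Mrc1, which encodes CD206, had 837, 994 and 823 CPM in MΦs and 1036, 1010 and 1026 CPM in MM-MΦs (0.22, SE 0.08, edgeR adjusted p = 0.469). The MM-MΦ libraries of Mrc1 all lay above its MΦ libraries, by little in pair 2. Vegfa, an angiogenic factor, had 211, 145 and 95.4 CPM in MΦs and 165, 151 and 90.9 CPM in MM-MΦs (−0.12, SE 0.13, edgeR adjusted p = 0.996). Il10 had 43.1, 43.6 and 19.7 CPM in MΦs and 66.6, 35.4 and 37.0 CPM in MM-MΦs (edgeR adjusted p = 0.518), and its log2 fold change of 0.41 became 0.76 without pair 2 (adjusted p = 0.00457). Nos2, the inducible nitric oxide synthase, had 0 counts in the 6 libraries.

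No member of the inflammatory cytokine list was called by edgeR (0 of 10). Tnf had 603, 354 and 149 CPM in MΦs and 817, 317 and 204 CPM in MM-MΦs (log2 change 0.24, SE 0.16, edgeR adjusted p = 0.900). Il1b had 55.4, 42.0 and 6.91 CPM in MΦs and 105, 39.5 and 16.9 CPM in MM-MΦs (0.66, SE 0.20, edgeR adjusted p = 0.208), and it was at 1.07 without pair 2 (adjusted p = 0.00382). All 14 NF-kB feedback genes had a log2 fold change above 0 (median 0.21) and 0 were called by edgeR. Of 42 S phase and 50 G2 and M phase genes 0 were called, with medians of 0.10 in both lists, and the pair 1 median of the G2 and M phase list was 0.36 against 0.02 and 0.00 in pairs 2 and 3. Glycolysis and hypoxia (26 tested), cholesterol synthesis (23) and lysosome genes (25) had 0 members called and medians of 0.03, 0.12 and 0.02.

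**Figure D4:**
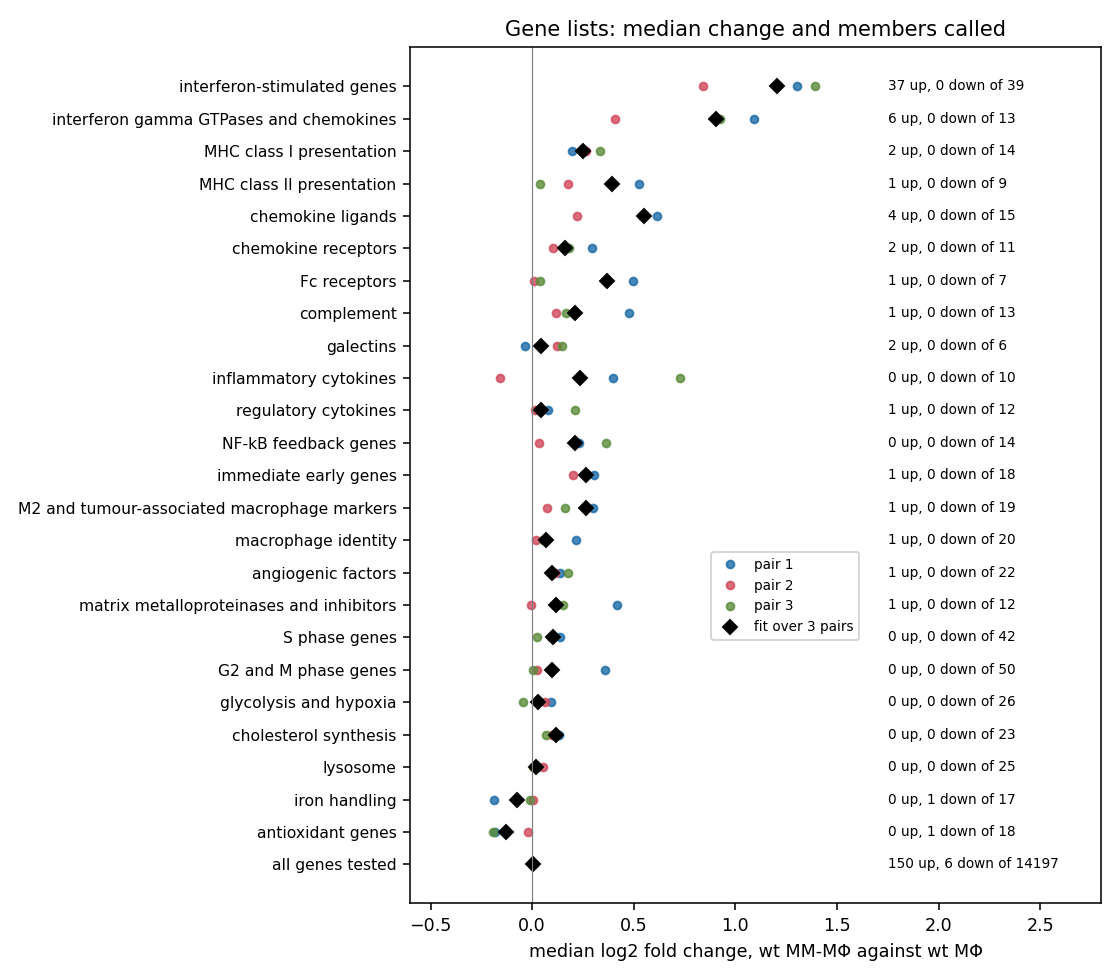
Median log2 fold change of 24 gene lists and of all genes tested in wt MM-MΦs against wt MΦs, from the fit (diamonds) and in each pair (dots), with the members called higher and lower at the right. The interferon-stimulated list stands at 1.21 with 37 of 39 members called, and the antioxidant list at −0.13 is the lowest of those drawn. Of the lists not drawn, collagen chains (−0.18) and dendritic cell markers (−0.51) lie lower.

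Of the 6 genes called lower, 2 had a log2 fold change of −1 or less. Cat, which encodes the hydrogen peroxide scavenger catalase, had 298, 307 and 264 CPM in MΦs and 211, 249 and 194 CPM in MM-MΦs (log2 change −0.42, SE 0.08, edgeR adjusted p = 0.00414). Slc40a1, the iron exporter ferroportin, had 412, 340 and 249 CPM in MΦs and 318, 252 and 194 CPM in MM-MΦs (−0.39, SE 0.08, edgeR adjusted p = 0.0079). The groups did not overlap for Cat and overlapped for Slc40a1. They were the only called members of the antioxidant list (1 of 18, median −0.13) and the iron list (1 of 17, median −0.08). Pgm2l1, a sugar phosphate mutase, had 69.8, 77.2 and 135 CPM in MΦs and 49.6, 59.2 and 112 CPM in MM-MΦs (−0.38, SE 0.09, edgeR adjusted p = 0.0427). Hmga2, a chromatin protein, had 5.28, 3.37 and 1.96 CPM in MΦs and 2.50, 1.66 and 1.05 CPM in MM-MΦs (−1.01, SE 0.24, edgeR adjusted p = 0.0467). Rps19, a ribosomal protein gene, had 63.8, 87.8 and 135 CPM in MΦs and 50.5, 56.8 and 89.5 CPM in MM-MΦs (−0.52, SE 0.10, edgeR adjusted p = 0.0071). Gm10705, a processed pseudogene, was at −1.26 (SE 0.25, edgeR adjusted p = 0.00933). Rps19 and Gm10705 are of kinds with near-identical copies elsewhere, which makes their counts uncertain. Without pair 1, 2 or 3 there were 2, 6 and 0 genes called lower, and without pair 3 the adjusted p was 0.105 for Cat, 0.101 for Slc40a1, 0.157 for Pgm2l1, 0.141 for Hmga2, 0.172 for Rps19 and 0.0663 for Gm10705. Without pair 1 Rps19 passed (adjusted p = 0.0136) and the other 5 did not, with 0.111 for Cat and 0.0779 for Slc40a1. Without pair 2 Cat and Gm10705 passed (adjusted p = 0.0108 and 0.0245) and the other 4 did not.

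The same contrast was read in the BMI1-KO libraries, which the wt values do not share, although both come from 1 fit. There 263 genes were called higher (1.85% of those tested) and 45 lower (0.317%). Of the 150 genes called higher in wt, 132 (88.0%) were also called higher in BMI1-KO cells, which is 50.2% of the 263. All 150 had a log2 fold change above 0 in BMI1-KO cells, and 0 were called lower there. Over these genes the median log2 fold change was 0.90 for wt against 1.02 for BMI1-KO, and wt had the larger value in 51 of the 150. Of the 6 genes called lower in wt, 4 were called lower in BMI1-KO cells, Cat, Slc40a1, Pgm2l1 and Hmga2. Rps19 stood at 0.27 in BMI1-KO cells (edgeR adjusted p = 0.287) and Gm10705 at −0.04 (edgeR adjusted p = 0.978).

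The difference between the genotypes was called for 1 gene (0.00704% of those tested), with 471 at an unadjusted p under 0.05, and for 0 of the 156 genes called in wt. The 1 gene was Hist1h1d, a linker histone. It had 61, 228 and 1818 counts in wt MΦs and 116, 304 and 1800 counts in wt MM-MΦs (log2 change 0.35, SE 0.14, edgeR adjusted p = 0.563). In BMI1-KO cells the counts were 15, 55 and 155 in MΦs and 43, 220 and 513 in MM-MΦs (1.81, SE 0.17, edgeR adjusted p = 9.74e-07). Igkc had a log2 fold change of 5.62 in BMI1-KO cells against 3.95 in wt. The BMI1-KO MΦ libraries held 4.97 to 10.5 immunoglobulin CPM against 7.24 to 49.1 in wt MΦs. For Iglc2 the fit gave 6.58 in BMI1-KO cells and 7.35 in wt. It had 0 counts in all MΦ libraries of both genotypes, so that the size of neither value is determined and they cannot be compared. The difference for Igkc had an edgeR adjusted p of 0.999. Without pair 2 the wt value of Igkc was 4.90.

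**Figure D5:**
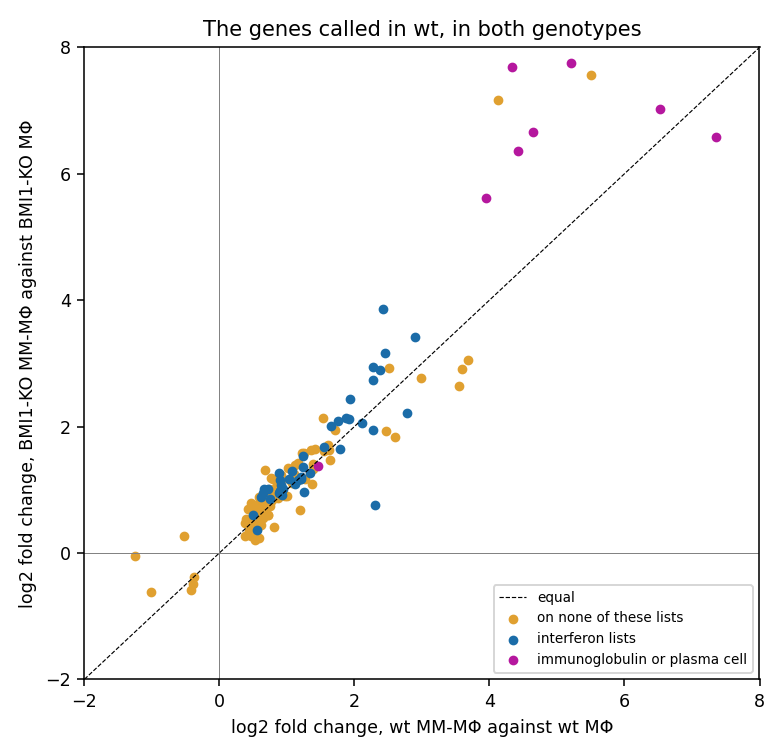
Log2 fold change of the 156 genes called in wt, in wt cells (x axis) and in BMI1-KO cells (y axis), with a dashed line where both are equal. All 150 genes called higher in wt lie above 0 on both axes, and most of the immunoglobulin or plasma cell genes lie above the dashed line.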

How the data were processed

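RNA-seq of sorted CD11b+ F4/80+ cells was available as 12 libraries in 4 groups of 3. Raw read counts for each gene were deposited, for which the submitters' processing notes name HTSeq 0.6.1, HISAT2 2.0.1, cutadapt 1.9.1, bcl2fastq 2.17.1.14 and the build mm10 (GRCm38), and FPKM values per library, which are scaled to gene length and library total by the authors. The submitters also name DESeq2. The sources used here give neither the strand setting of the counting nor its annotation, so antisense and overlapping genes cannot be separated. FPKM were not tested. Positions of all 156 called genes equal those of GENCODE vM21.

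The deposited counts went into edgeR 4.0.16 under R 4.3.3 (TMM, filterByExpr with a minimum count of 10, quasi-likelihood test) over the 12 libraries, with the replicate number within each genotype as a block and a co-culture term for each genotype, which leaves 4 residual degrees of freedom. Benjamini-Hochberg adjustment ran over 14197 genes, with a threshold of 0.05. Log2 fold changes come from this fit, and CPM use its TMM-scaled library sizes. Medians for single pairs are differences of log2 CPM with a prior count of 2. SE is the log2 fold change divided by the root of the F statistic. The block rests on the pairing by number, checked as correlations of deviations from group means across genes. Numbers 1, 2 and 3 gave r = 0.548, 0.361 and 0.725 among wt libraries, and 0.642, 0.180 and 0.598 among BMI1-KO libraries. Libraries of unlike number gave −0.562 to 0.116 in wt and −0.583 to 0.0689 in BMI1-KO cells. Deviations within a group sum to 0, so that matched and unmatched values are not independent. The scripts were tested on simulated data.

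The comparison and gene lists were chosen with earlier results of these data known. Named genes are the 15 largest rises and falls with at least 5 CPM and 3 pairs in 1 direction, the 10 smallest adjusted p-values, up to 4 members of each list, genes the study names, and 3 abundant members of marker lists. Others, such as Il5ra, Hmga2, Irf7, Mx2 and Plk2, and the interferon ligand, receptor and factor lists, were chosen after their values were seen. Alternatives were fits without the block or with the 6 wt libraries alone, DESeq2 1.42.0, limma-voom (limma 3.58.1), other scalings and filters, and each pair left out. A few members of the lists are not reported here.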

Additional observations from a re-analysis of the deposited data

Results flagged for a closer look

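Hist1h1d, a linker histone gene, was the 1 gene whose co-culture effect differed between the genotypes by the test of the difference itself. The effect in wt cells minus that in BMI1-KO cells was −1.46 on the log2 scale (SE 0.23, edgeR adjusted p = 0.0393). In both genotypes its counts were highest in replicate 3 of both groups, and DESeq2 called 3 genes for this difference, limma-voom 1 and the fit without the replicate block 0.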

How the results depend on the processing

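The replicate number as a block decided how many genes passed. With no replicate block 13 genes were called in wt (13 higher and 0 lower), 27 among BMI1-KO co-culture genes called, and 0 for the genotype difference, and in the 6 wt libraries with no replicate block 6 were called (6 higher, 0 lower). All 156 genes kept their direction without the block in the 12 libraries. This adds no weight to the calls, as each of these genes had moved in 1 direction in all 3 pairs. Without the filter on low counts 263 genes were called in wt (245 higher, 18 lower), 495 in BMI1-KO cells and 23 for the genotype difference, for which DESeq2 called 3. With a log2 fold change of at least 1 required, 70 were called. Leaving out 1 pair gave 94 to 169 genes in wt, of which 93 to 124 were among the 156, with 94 to 163 higher and 0 to 6 lower, and 0 to 2 genes for the genotype difference. The counts in wt with limma-voom (184), DESeq2 (161), RLE scaling (157), upper quartile scaling (151), the 1 CPM filter (155), the 6 wt libraries with the block (172) and scaling without immunoglobulin and plasma cell genes (156) stayed within 1.5 times the main count. With 3 pairs and 4 residual degrees of freedom small changes could be missed, and genes under a few CPM, such as Il5ra, Iglc3, Pou2af1, C4b and Isg15, rest on few counts.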

Other observations

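Several called genes belong to no list described above. Ly6a, which encodes the surface protein Sca-1, had 42.2, 12.1 and 21.8 CPM in wt MΦs and 156, 21.7 and 82.0 CPM in wt MM-MΦs (log2 change 1.64, SE 0.15, edgeR adjusted p = 7.74e-07). Its log2 rise was 1.884, 0.8405 and 1.905 in pairs 1, 2 and 3, and the groups overlapped. Without the replicate block Ly6a was not called. Nxpe5 had 43.7, 38.6 and 29.3 CPM in MΦs and 181, 65.3 and 76.8 CPM in MM-MΦs (1.42, edgeR adjusted p = 5.01e-05). Pair 1 had the highest MM-MΦ level of both genes and of Cd38.

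Runs of 3 or more called genes with gaps of at most 500 kb formed 11 clusters, which together held 45 of the 150 genes called higher. Each run starts and ends at a called gene, which raises the share called inside it. Over all genes tested 1.06% were called higher, and how many runs other sets of 150 genes would form was not computed. Beside the Ifi200 and Ifit runs, Gbp7, Gbp3 and Gbp2 on chromosome 3 were 3 of 3 genes tested from 142530342 to 142638008. Gbp4, Gbp5 and Gbp8, which lie in none of the runs, were tested and not called. Parp14, Dtx3l and Parp9 on chromosome 16 were 3 of 4 tested from 35832874 to 35972605. Oas2, Oas3, Oas1g, Oas1a and Trafd1 on chromosome 5 were 5 of 11 tested from 120730333 to 121385632, and Gm4070, Gvin1, Gm8995 and Gm1966, of the very large GTPases, were 4 of 6 on chromosome 7 from 105895139 to 106604035.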
